A study of Heliothis virescens with 2 samples.

Results

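Cuticle and chitin-binding proteins of the gut were followed through 7 HT-SuperSAGE tags of *Heliothis virescens*, the tobacco budworm. They are the tags of the study's annotated lists that are classed as chitin-binding or whose protein name holds cuticle, cuticular, chitin, peritrophin or mucin. The deposited data hold 35963 different tags, and 390 tags with a contig in those lists could be joined to them. The lists contain only tags that were called different between the same 2 libraries, so the 7 members were chosen by the measured difference between the libraries, and their values are given as a description without a test. No tag with the name peritrophin was found among the 390 joined tags, and list entries that could not be joined were not searched.

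One library was made from the strain Vip–Sel, which was selected with Vip3Aa, an insecticidal protein of *Bacillus thuringiensis*, and is resistant to it. The other was made from Vip–Unsel, the susceptible subpopulation that was kept without selection and descends from the same field-derived population, WF06. Each library holds pooled RNA of dissected guts of 25 larvae of instar 3, in 5 RNA preparations, from larvae fed a diet without Vip3Aa, and the Vip–Sel insects had been reared for several generations without selection before sampling. With 1 library per strain no value has a replicate, and every comparison is between these libraries and not between the strains.

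A SuperSAGE tag is the 26 bases that begin at the CATG site of a cDNA, and its count stands for the transcript that carries it. Vip–Sel was sequenced to 1056080 counts and Vip–Unsel to 268172. Levels are given as counts per 1000000 library counts (CPM). A count of 3 corresponds to 2.84 CPM in Vip–Sel and 11.2 CPM in Vip–Unsel, so a low tag is measured more finely in Vip–Sel. Fold change (FC) is the Vip–Sel share of counts divided by the Vip–Unsel share. An FC of 2.5 or more was called overexpressed (OE) and an FC of 0.4 or less underexpressed (UE), each with an unadjusted probability below 0.05. Intervals are 95% intervals from the exact binomial distribution; they cover only the error of counting, because amplified reads are not independent molecules. In pooled tissue, fewer cells of a type and less RNA per cell cannot be told apart.

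Chitin is a polymer of N-acetylglucosamine. In insects it is laid down in the cuticle, which also lines the foregut and hindgut, and in the peritrophic matrix, the sheet that separates food from the midgut epithelium. Cuticular proteins, many of which bind chitin through a Rebers-Riddiford (RR) domain, pack the fibres of the cuticle. Chitin deacetylases remove acetyl groups from chitin, and insect intestinal mucins are glycosylated proteins of the peritrophic matrix. In moths the midgut itself bears no cuticle.

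The 7 tags are shown because the count files hold tag sequences and no gene names, so the sequence is what identifies a member. They are printed from CATG onward, with the last 2 bases in capitals because the forms added to each tag below differ from it there.
Tag_163, larval cuticle protein 1: catgacacgggcgtgcggaggagcAT
Tag_116, putative cuticle protein CP438: catgtggtggactccgttgctgagCC
Tag_1546, cuticular protein PsuCPR103c: catgccccagtcctcctcgctcacCA
Tag_5002, cuticular protein RR-2 motif 97: catgaagccgacggttccatcagaAC
Tag_82, chitin deacetylase 5a: catgggtcggcaatcctcttggacTT
Tag_4245, chitin binding domain 3 protein: catggacccgccgaacagaggctcCA
Tag_2963, insect intestinal mucin 3: catggtagcgagcgtgcgccccatCT
The 7 sequences were 53.8% to 65.4% G and C. Shared tags of like G and C content, counted at least 10 times, had a median log2 FC between -0.42 and -0.24, and only Tag_1546 lost its call when centred on it (log2 FC -1.11), a setting chosen after seeing the data. No genome or transcript of *H. virescens* was used here, so chromosome, exon and distance to the transcript end are not given.

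The members did not move in 1 direction. The study's chitin-binding class covers Tag_163, Tag_82, Tag_5002, Tag_4245 and Tag_2963. Larval cuticle protein 1 and chitin deacetylase 5a were OE in Vip–Sel. The other 3 cuticle tags, the chitin binding domain 3 protein and the mucin were UE. These calls stand beside 6.7% OE and 27% UE among the 15467 tags counted at least 2 times, and nothing can be read from the comparison because the rule took called tags only. All 7 members were counted in both libraries and passed that minimum. Their median log2 FC was -2.06, beside -2.31 over the 390 annotated tags and -0.98 over all tags tested. The members nearest to the FC thresholds were Tag_1546 on the UE side (0.346) and Tag_82 on the OE side (4.57). Tags outside the thresholds carry no name in the lists, so no member just outside can be given.

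**Figure D1:**
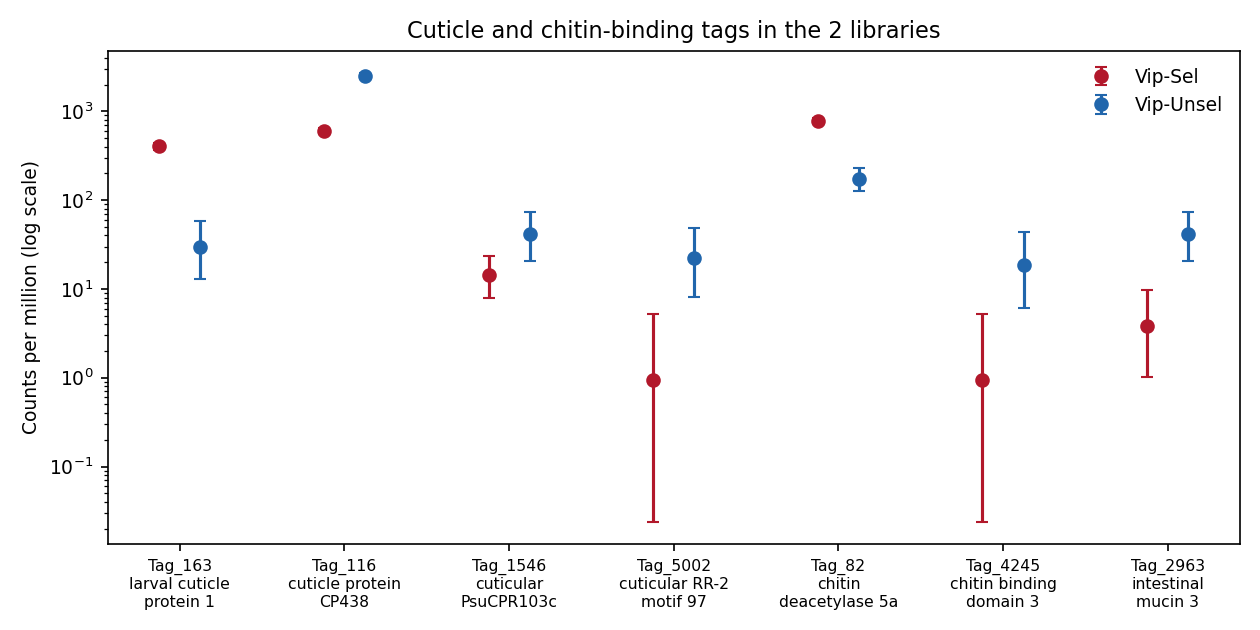
CPM of the 7 tags in Vip–Sel (red) and Vip–Unsel (blue) on a log axis, with exact 95% counting intervals as bars. Tag_163 and Tag_82 were higher in Vip–Sel, the other 5 were higher in Vip–Unsel, and the intervals of the libraries overlap only for Tag_1546.

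Larval cuticle protein 1 (Tag_163) is a structural protein of the soft larval cuticle. It was counted 427 times in the Vip–Sel library and 8 times in the other. These are 404 CPM (95% interval 367 to 445) and 29.8 CPM (12.9 to 58.8), which do not overlap. The FC was 13.6 (6.82 to 31.6), the highest of the members. By count the tag ranked 168 in Vip–Sel but 1467 in Vip–Unsel.

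CP438 (Tag_116) is named as a putative cuticle protein and was the most abundant member in Vip–Unsel. It had 634 Vip–Sel and 669 Vip–Unsel counts. The levels were 600 CPM (555 to 649) and 2495 CPM (2309 to 2691), so the near-equal counts come from libraries of unequal size. The FC was 0.241 (0.216 to 0.269). It ranked 119 in Vip–Sel but 48 in Vip–Unsel. The UE call of this tag rests on scaling by the library totals. With library sizes from TMM, which leaves out tags at the extremes of fold and abundance, every log2 FC moved up by 1.09, and Tag_116 was at -0.96 and no longer UE. Under TMM, 20.9% of all tags tested were UE and 16.7% OE.

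The other cuticle tags were low in both libraries. PsuCPR103c (Tag_1546), a cuticular protein name of the RR family, had 15 Vip–Sel and 11 Vip–Unsel counts, or 14.2 CPM (7.95 to 23.4) and 41.0 CPM (20.5 to 73.4). These intervals overlap slightly, and the FC was 0.346 (0.149 to 0.833). With TMM its log2 FC was -0.44 and the UE call was lost. The RR-2 motif 97 protein (Tag_5002), of the RR class usually associated with hard cuticle, had 1 Vip–Sel and 6 Vip–Unsel counts. Its FC was 0.0423 (0.000920 to 0.349), and the upper bound lies below the UE threshold when library totals are used. With TMM its log2 FC was -3.47 and the UE call was kept. The shift of 1.09 takes the upper bound above the threshold.

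Chitin deacetylase 5a (Tag_82) was the most abundant member in Vip–Sel. Whether its product carries a chitin-binding domain or removes acetyl groups from chitin was not tested. The tag had 827 Vip–Sel and 46 Vip–Unsel counts, or 783 CPM (731 to 838) and 172 CPM (126 to 229). The FC was 4.57 (3.39 to 6.29), and the levels do not overlap. It ranked 95 in Vip–Sel but 381 in Vip–Unsel.

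Tag_4245 and Tag_2963, of the chitin-binding class, were both near the floor in Vip–Sel. The chitin binding domain 3 protein (Tag_4245) had 1 Vip–Sel and 5 Vip–Unsel counts, an FC of 0.0508 (0.00107 to 0.454). The upper bound lies above the UE threshold. From quantitative RT-PCR on newly dissected guts, the study reports this gene as underexpressed in Vip–Sel. Insect intestinal mucin 3 (Tag_2963) had 4 and 11 counts, an FC of 0.0923 (0.0214 to 0.312). At 3.79 CPM in Vip–Sel against 41.0 in Vip–Unsel, the mucin tag was far below chitin deacetylase 5a in both libraries. Levels of different tags are compared here as tag counts, which do not scale with transcript length if each cDNA yields 1 tag. The study found part of the tags far from contig ends and proposes inefficient cutting at CATG or few such sites. Whether 1 tag per cDNA holds here was not tested.

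**Figure D2:**
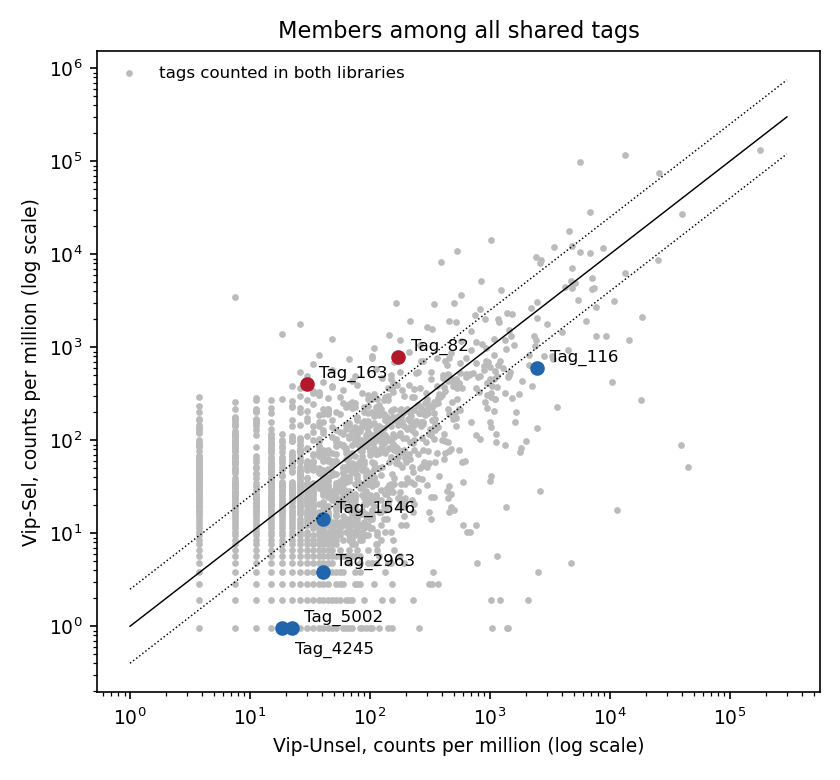
CPM of the tags counted in both libraries (grey), Vip–Unsel on the horizontal and Vip–Sel on the vertical log axis. The solid line marks equal levels, the dotted lines the FC thresholds of 2.5 and 0.4, and the members are red where OE and blue where UE. Tag_116 lies to the right among abundant tags, and Tag_5002 and Tag_4245 at 1 Vip–Sel count.

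Summed over the members, Vip–Sel held 1909 counts (0.181% of the library) and Vip–Unsel 756 (0.282%), a ratio of 0.641 (0.589 to 0.698). This sum is a matter of single tags. Without Tag_116 the ratio was 3.72 (2.99 to 4.68), and without Tag_82 it was 0.387 (0.352 to 0.426). With TMM-scaled sizes the log2 ratio turned from -0.64 to 0.45. The 4 cuticle tags together had a ratio of 0.394 (0.358 to 0.434), and this too turned without Tag_116, to 4.50 (3.01 to 7.03), a sum added after seeing the data. Tag_4245 and Tag_2963 together had a ratio of 0.0794 (0.0227 to 0.227), which leaves out the abundant OE members of the chitin-binding class, Tag_163 and Tag_82.

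Forms that share the first 24 bases with a member and differ in the last 2 bases were added to it. Larval cuticle protein 1 had 6 forms with 540 Vip–Sel and 10 Vip–Unsel counts, a ratio of 13.7 (7.40 to 28.8). Chitin deacetylase 5a had 15 forms with 1207 and 66 counts (4.64, 3.62 to 6.04), and CP438 had 7 forms with 686 and 766 (0.227, 0.205 to 0.252). The mucin had 3 forms with 5 and 18 counts (0.0705, 0.0205 to 0.197), and the chitin binding domain 3 protein 4 forms with 3 and 8 (0.0952, 0.0163 to 0.397). PsuCPR103c had 3 forms with 18 and 12 counts, and Tag_5002 had no other form. Each sum was on the same side of its threshold as its tag alone. Among the sums over 24 bases, 7.72% of all 10931 were OE and 26.2% UE.

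The share of counts in other forms does not use the difference between the libraries. In chitin deacetylase 5a it was 31.5% (28.9 to 34.2) in Vip–Sel and 30.3% (19.6 to 42.9) in Vip–Unsel. In larval cuticle protein 1 it was 20.9% (17.6 to 24.6) in the Vip–Sel library, and 2 of 10 counts in the other. In CP438 it was 7.58% (5.71 to 9.82) and 12.7% (10.4 to 15.2), intervals that do not overlap. Over the 345 tags with at least 100 Vip–Sel and 10 Vip–Unsel counts in their forms, the median share was 17.3% in Vip–Sel against 21.2% in Vip–Unsel. The share of CP438 was below the median in both libraries, and that of chitin deacetylase 5a was above it in both. In Vip–Unsel the interval of chitin deacetylase 5a includes the median.

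**Figure D3:**
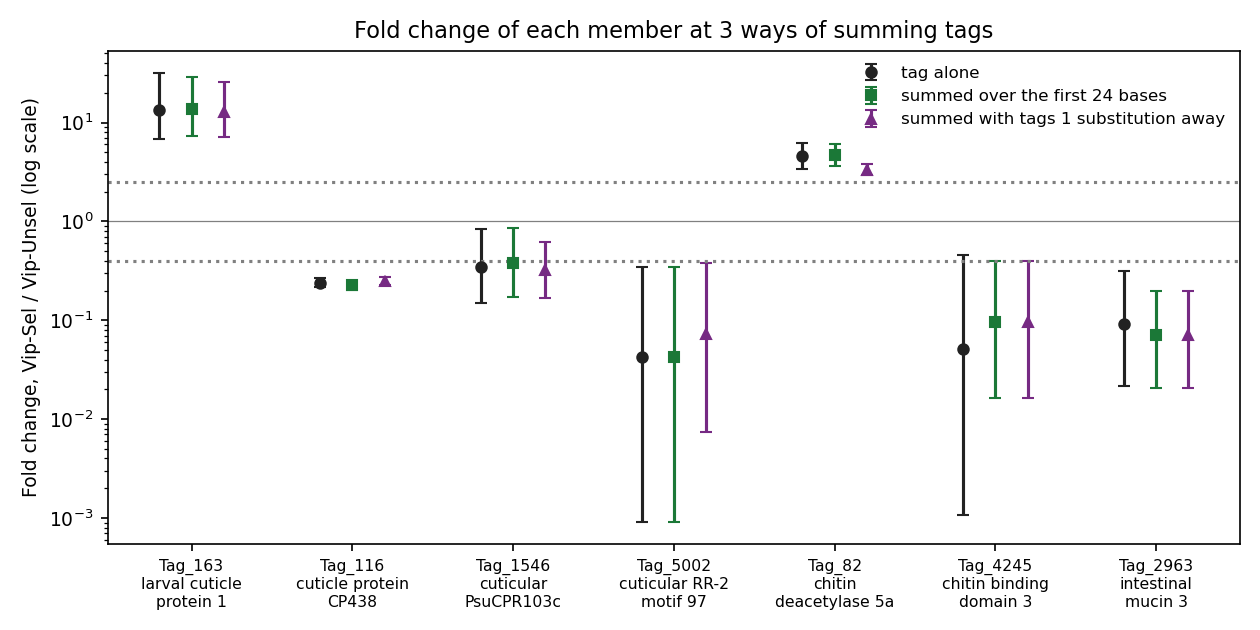
FC of each member on a log axis as the tag alone (circles), summed over the first 24 bases (squares) and summed with all tags 1 substitution away (triangles), with exact 95% counting intervals. Dotted lines are the FC thresholds of 2.5 and 0.4. The 3 ways of summing put every member on the same side of 1.

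Tags that differ from a member by 1 base within the first 24 bases and had at least 10 counts were found for CP438, PsuCPR103c and chitin deacetylase 5a. Changes in the last 2 bases are counted as forms, above. Positions are counted from 1 at the C of CATG, and the changed base is in capitals. The neighbours with a code are listed without a contig by the study, which required a match of all 26 bases, so they carry no protein name of their own, and the tag with both changes has no code. The sequences are shown because the counts of Tag_116 and its neighbours divide among them differently in the libraries.
Tag_116: catgtGgtggactccgTtgctgagcc
Tag_1034, G6T: catgtTgtggactccgttgctgagcc
Tag_414, T17C: catgtggtggactccgCtgctgagcc
both changes: catgtTgtggactccgCtgctgagcc
Tag_82: catgggtcggcaatcctctTggactt
Tag_44, T20C: catgggtcggcaatcctctCggactt
Tag_1546: catgcCccagtcctcctcgctcacca
Tag_2695, C6T: catgcTccagtcctcctcgctcacca

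Tag_414, which differs from CP438 by T17C, had 144 Vip–Sel and 1 Vip–Unsel counts. It was therefore OE (FC 36.6, 6.46 to 1454), the opposite of Tag_116. Tag_1034, which differs by G6T, had 30 Vip–Sel and 117 Vip–Unsel counts and was UE (FC 0.0651, 0.0421 to 0.0979). The tag with both changes, singled out after its values were seen, had 0 Vip–Sel and 12 Vip–Unsel counts. Setting the floor of 3 counts in Vip–Sel against these 12 gives a 15.8-fold lower level in Vip–Sel. That value leaves out the counting error of the 12 counts. The exact interval of the ratio, which includes this error, reaches up to 0.0914.

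Within the 4 tags, the base at position 17 and the base at position 6 differed between the libraries in opposite ways. The tags with T17C held 17.8% of the 808 Vip–Sel counts (15.2 to 20.6) and 1.63% of the 799 Vip–Unsel counts (0.869 to 2.77). The tags with G6T held 3.71% in Vip–Sel (2.52 to 5.26) and 16.1% in Vip–Unsel (13.7 to 18.9). Neither pair of intervals overlaps. The neighbours had to reach a minimum count over both libraries, which Tag_414 reached only through Vip–Sel. Tag_1034 reached it in each library. The tag with both changes was singled out after its values were seen. The shares are therefore a description of chosen tags and not a test of a difference. Tag_116 itself held 78.5% and 83.7%. Summed, the 4 tags had a ratio of 0.257 (0.233 to 0.284), beside 0.241 for Tag_116 alone, and with all forms of the 4 tags (869 against 922 counts) the ratio was 0.239 (0.218 to 0.263). Whether these tags come from 1 gene, from copies or from alleles was not tested.

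**Figure D4:**
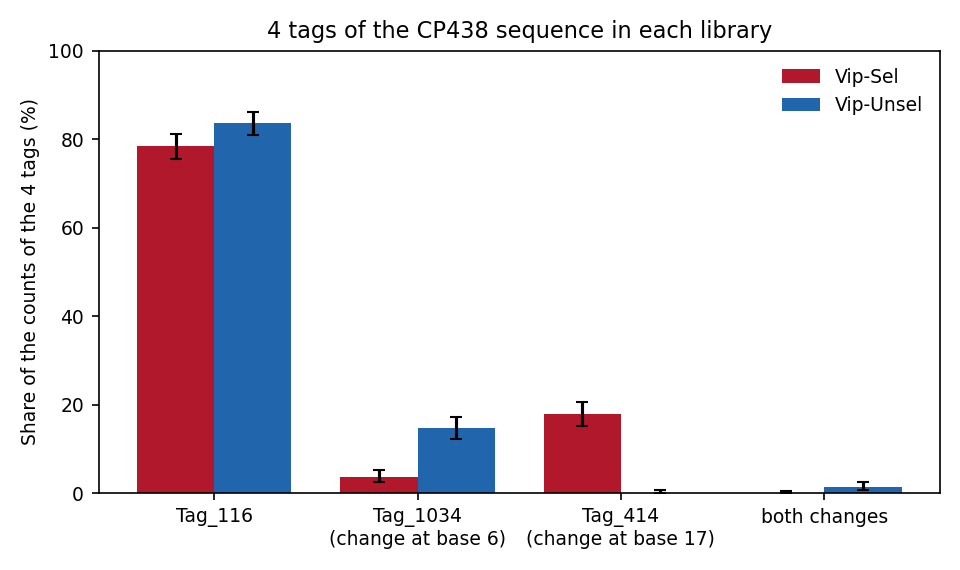
Share of the counts of the 4 tags in Vip–Sel (red, 808 counts) and Vip–Unsel (blue, 799 counts), with exact 95% counting intervals. Only Tag_116 is annotated as CP438. Tag_116 held 78.5% and 83.7%, Tag_414 17.8% in Vip–Sel and 1 count in Vip–Unsel, and Tag_1034 3.71% and 14.6%.

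The neighbour of chitin deacetylase 5a was more abundant than the member itself. Tag_44, which differs by T20C, had 2325 Vip–Sel and 200 Vip–Unsel counts and was OE (FC 2.95, 2.55 to 3.43). The member held 26.2% of the counts of the pair in Vip–Sel (24.7 to 27.8) and 18.7% in Vip–Unsel. The upper bound in Vip–Unsel, 24.1%, lies just below the lower bound in Vip–Sel. Together the pair had 3152 Vip–Sel and 246 Vip–Unsel counts, a ratio of 3.25 (2.86 to 3.72). Over their first 24 bases the pair had 4688 and 366 counts and the same ratio, 3.25 (2.92 to 3.63). The neighbour of PsuCPR103c, Tag_2695, had 5 and 7 counts and was UE (FC 0.181, 0.0454 to 0.664).

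By the size of the difference, the annotated tags nearest to larval cuticle protein 1 were carboxypeptidase A (Tag_492, 110 and 2 counts) and serine protease 37 (Tag_310, 206 and 4 counts), both digestive enzymes by name. Their log2 FC lay within 0.0433 and 0.0516 of it. Nearest to chitin deacetylase 5a were the translation factor eIF4A-8 (Tag_758, 54 and 3 counts) and transmembrane emp24 domain-containing protein 2 (Tag_574, 88 and 5 counts), a protein of vesicle traffic. Nearest to CP438 were a muscle myosin heavy chain (Tag_197, 337 and 358 counts) and trypsin T7 (236 and 252 counts), at distances of 0.00969 and 0.0171. Likeness here is over 2 libraries only, by 1 value per tag.

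Other tags of the same biology were grouped by protein name with their calls known. Like the members they come from called tags only, so their directions are not independent evidence. Of the 390 annotated tags, 290 (74.4%) were UE and 100 (25.6%) OE, and the counts below are to be read against these shares. UDP-N-acetylglucosamine pyrophosphorylase (Tag_4176), which makes the activated sugar from which chitin is built, had 1 Vip–Sel and 10 Vip–Unsel counts and was UE (FC 0.0254, 0.000585 to 0.178). All 3 tags of the moulting hormone list were UE. Among them, E75 (Tag_698), a nuclear receptor induced by ecdysone, had 63 Vip–Sel and 167 Vip–Unsel counts (FC 0.0958, 0.0705 to 0.129). Ecdysteroid 22-kinase (Tag_3393), which inactivates ecdysteroids, had 3 and 4 counts and an FC interval (0.0279 to 1.13) that includes 1, and juvenile hormone diol kinase (Tag_2625), of juvenile hormone breakdown, had 5 and 12. Over the list there were 71 against 183 counts, a ratio of 0.0985 (0.0738 to 0.130). E75 holds most of these counts, so the ratio is mainly that of E75. With TMM, 2 of the 3 calls of the list were left.

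Of 4 tags of other covers and matrices, 2 were OE and 2 UE. Collagen alpha-2 IV (Tag_805), a basement membrane protein, had 48 Vip–Sel and 1 Vip–Unsel counts, and yellow-like protein (Tag_160), of a family tied to pigmentation, had 437 and 42 (FC 2.64, 1.92 to 3.72). Chorion peroxidase (Tag_1852), of a family that hardens the egg shell, had 11 and 183 counts (FC 0.0153, 0.00749 to 0.0280), and a second tag of that name (Tag_3345) had 3 and 4, with an interval that includes 1 (0.0279 to 1.13). The log2 ratio of the sum turned from -0.86 to 0.23 with TMM. All 3 tags of other sugar polymers were UE. Chondroitin sulfate synthase 2 (Tag_609) had 80 and 82 counts, N-acetylglucosamine-6-sulfatase-like (Tag_2538) 5 and 40, and N-sulphoglucosamine sulphohydrolase (Tag_4121) 1 and 2. The FC interval of Tag_4121 (0.00215 to 2.44) includes 1. With TMM only Tag_2538 stayed UE.

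For the labelled tissue, 2 brush border enzymes of the midgut were looked up. Alkaline phosphatase (Tag_229) had 290 Vip–Sel and 294 Vip–Unsel counts and was UE, at 275 and 1096 CPM, a call that was lost with TMM. Aminopeptidase N (Tag_403) had 149 and 6 and was OE (FC 6.31, 2.83 to 17.5). Both were counted in both libraries, but the lists appear to hold only such tags, so this does not check the tissue. Muscle lies around the gut, and its 6 annotated tags were all UE, with 380 Vip–Sel and 413 Vip–Unsel counts. These are 360 and 1540 CPM, a ratio of 0.234 (0.203 to 0.269), beside 0.241 for Tag_116. This likeness was not particular to muscle. The FC interval of alkaline phosphatase (0.212 to 0.296) includes both values, and the FC of trypsin T7 was 0.238, while aminopeptidase N was OE. The muscle tags ranged from 2 to 337 counts in Vip–Sel and from 6 to 358 in Vip–Unsel, which likewise does not check the tissue. Without the myosin Tag_197, which holds most of these counts, the ratio was 0.199 (0.130 to 0.301). The FC interval of tropomyosin-1 (Tag_1884, 0.125 to 1.12) includes 1. With TMM, 3 of the 6 muscle calls were left. The part of muscle, or of cuticle-lined gut left on the dissected tissue, in the values of the members was not tested.

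**Figure D5:**
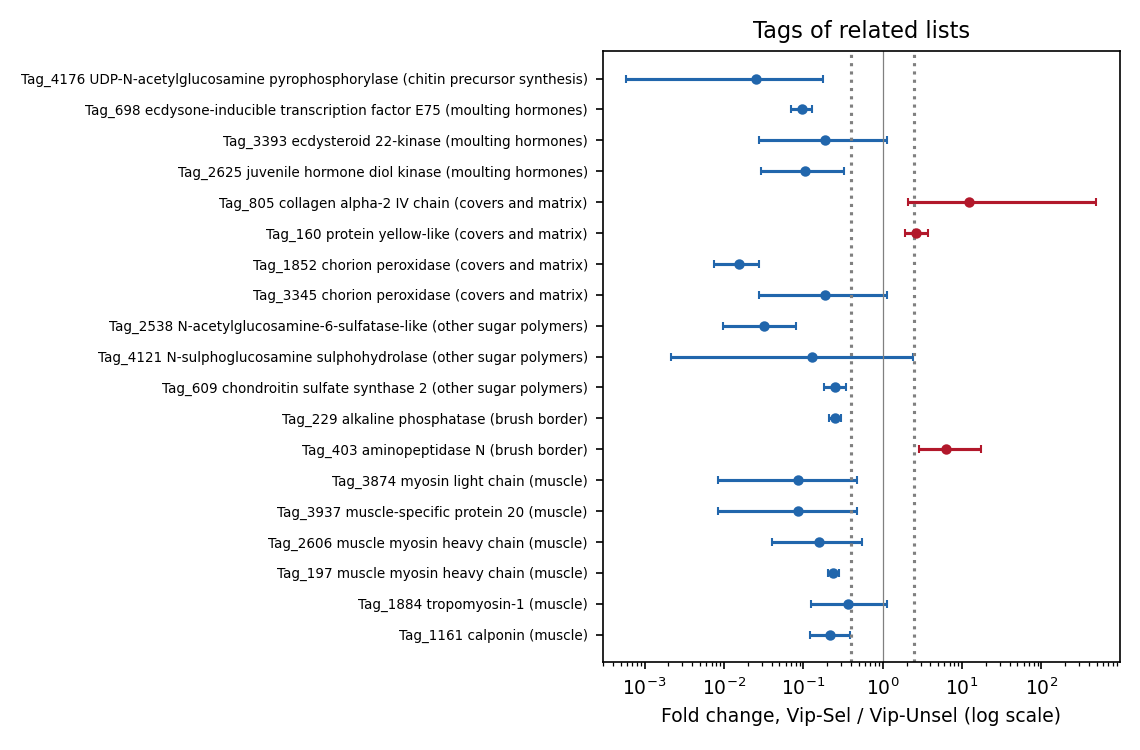
FC of the tags of the related lists on a log axis, with exact 95% counting intervals, red where OE and blue where UE. Dotted lines are the FC thresholds of 0.4 and 2.5. The chitin precursor, moulting hormone, other sugar polymer and muscle tags were all UE, and the covers and brush border lists held both directions.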

How the data were processed

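Gut RNA of Vip–Sel and Vip–Unsel larvae was profiled by HT-SuperSAGE in 1 library each. The authors assigned reads to libraries by their index, dropped those that were incomplete or of low quality, and deposited raw counts of each 26-base tag. No alignment enters the counts. Deposited files carry no tag codes, so codes and protein names came from the text of the study's supplementary lists, which has reading errors, and entries were matched to deposited tags by counts and then by the nearest sequence. The 7 members, the tags with their first 24 bases, neighbours 1 substitution away with at least 10 counts, the nearest annotated tags and the lists were named. Members and lists were chosen with earlier results of these data known. FC used library totals, a count of 0 being set to 1, and the Audic-Claverie probability (one-sided, cumulative) on the 15467 tags with at least 2 counts. The authors' own fold changes and probabilities in the lists were not used. Alternatives were TMM and median-of-ratios scaling, totals without the 10 most abundant tags, Benjamini-Hochberg adjustment, Fisher's exact test, FC thresholds of 4 and 0.25, other count minimums, 3 in place of 0, and summing of forms. Python 3.11.15, numpy 2.4.6, scipy 1.17.1, matplotlib 3.10.9, R 4.3.3 and edgeR 4.0.16 (TMM only) were used.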

Additional observations from a re-analysis of the deposited data

How the results depend on the processing

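No paired analysis was possible because each strain has 1 library. Of 84 alternative values of the members, alone, summed over 24 bases or summed with all tags 1 substitution away, 72 kept direction and call, 12 kept the direction and lost the call, and 0 reversed. Benjamini-Hochberg adjustment, Fisher's test and other FC thresholds leave the FC unchanged and could not reverse it. Nor could the scalings, which raise log2 FC by at most 1.09, while the UE value nearest to no change was -1.39 (24-base sum of Tag_1546). The tally is therefore no test of the directions. The log2 FC of Tag_116 was -0.96 with TMM and -0.97 with the median of ratios, and that of its 24-base sum -1.04 and -1.05. For Tag_1546 the values were -0.44, -0.45 and, without the 10 most abundant tags of each library, -1.21, and for its 24-base sum -0.30, -0.31 and -1.07. Its -1.53 did not reach the FC threshold of 0.25, and with centring on GC content, chosen after seeing the data, it was -1.11. TMM moved every log2 FC by 1.09, the median of ratios by 1.08 and the totals without the 10 most abundant tags by 0.32. The log2 ratio of the member sum, -0.64, was 0.45, 0.44 and -0.32 under these 3 scalings, and from -1.37 (without Tag_82) to 1.90 (without Tag_116) with 1 member left out. That of the cuticle sum, -1.34, was from -2.06 (without Tag_163) to 2.17 (without Tag_116). OE tags numbered 2590 with TMM, 2588 with the median of ratios and 613 with 3 in place of 0, in place of 1037. UE tags numbered 992 with at least 10 counts and 9547 with no minimum, in place of 4169. At 1 Vip–Sel count, Tag_5002 and Tag_4245 are limited by depth.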

Other observations

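A relative of the RR-2 motif 97 tag (Tag_5002), chosen after its values were seen, differs from it by T15C, A19G and A24G. It had 15 Vip–Sel counts and 1 Vip–Unsel count (FC 3.81, 0.586 to 160) and was not called, while Tag_5002 had 1 and 6 counts. It has no protein name in the lists.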
